A study of Homo sapiens with 34 samples.

Results

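The replication-dependent histone genes were taken by symbol from the GENCODE annotation of hg38, as the protein-coding genes on chromosomes 1 to 22 named H2AC, H2BC, H3C or H4C followed by a digit, together with H1-1 to H1-6. This gave 70 of 19103 genes, of which 6 encode linker histone H1, 17 histone H2A, 19 histone H2B, 13 histone H3 and 15 histone H4. By position, 55 members lay on chromosome 6 between 25723397 and 27893891, 11 lay at 1q21 between 149782689 and 149887965, and 4 lay elsewhere. The 4 were the divergent pair H2AC25 and H2BC26 on chromosome 1, H4C16 on chromosome 12 and H2BC12L on chromosome 21. The chromosome 6 members fell into 3 stretches, 34 members over 562.2 kb from H2AC1 to H4C8, 5 over 21.7 kb from H2BC11 to H2AC12 and 16 over 86.4 kb from H2BC13 to H2BC17.

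These genes supply the bulk of the histone protein that is wrapped with newly copied DNA, and their mRNA rises in S phase and is destroyed when replication ends. They are short and without introns in their main form, and their mRNA ends in a conserved stem-loop in place of a poly(A) tail. The stem-loop is bound by SLBP, transcription is activated by NPAT downstream of cyclin E and CDK2, and the clusters gather in a nuclear structure called the histone locus body. H3K4me3 and H3K27ac mark active promoters, H3K4me2 lies around them, H3K4me1 marks enhancers and promoter flanks, and H3K27me3 is the mark of Polycomb repression.

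The cells were KELLY, a human neuroblastoma line carrying amplified MYCN. All libraries came from KELLY cells that carry a doxycycline-inducible shRNA against RUNX1T1, a transcriptional co-repressor, and were given either DMSO, with the shRNA off, or doxycycline for 72 h. ChIP-seq was performed for 5 histone marks with 3 replicates per mark and treatment, which gave 30 peak lists, and 4 input samples entered only as the background of the peak calls. The comparison asks where RUNX1T1 knockdown alters the marks. The labels do not say which shRNA construct was used or whether replicates were separate cultures, so the spread between them may be technical. No group analysed here received doxycycline without the shRNA, so the drug and the knockdown cannot be told apart, and RUNX1T1 itself was not measured by these lists.

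Peaks were called at 71.9 to 81.1 M reads in DMSO and at 57.0 to 63.4 M in doxycycline, ranges that do not overlap. The depth of the calls therefore cannot be told apart from the treatment. The lists held 23801 to 26592 H3K4me3 peaks, 51860 to 88427 H3K4me2, 48171 to 71603 H3K27ac, 88001 to 147426 H3K4me1 and 56926 to 157087 H3K27me3 peaks. The cells' label was checked on marker genes. Among the adrenergic neuroblastoma markers given here, HAND2, GATA3, ISL1, TH and DBH had H3K4me3 in all 6 lists. Among the markers of other cell types given here, PTPRC and CD3E (blood), ALB (liver) and CDH5 (endothelium) had it in none, and COL1A1 (fibroblast) had it in all 6.

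A member was scored as marked when a peak overlapped the 1 kb on either side of an annotated start site by at least 1 bp. The height of a peak, its pileup, is the depth of stacked fragments, and since it depends on library depth it is given as a percentile, the percentage of peaks in the same list that were lower. Because the genes are packed, 47 of the 70 members shared a merged promoter window with another member, and neighbouring members often took their value from the same peak. Members are therefore not independent of each other. Near-identical copies add a limit of their own. In 15 members under 90% of the read-length words of the promoter window occurred once in the genome. The share was 0% for H3C14, H3C15, H4C14, H4C15 and H2BC12L, 12.6% for H2AC18 and H2AC19, 54.3% for H3C13 and 64.9% for H2BC18, and reads of such copies may have been placed on either.

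RefSeq promoters (GRCh38.p14, the 250 bases before and 50 bases from the start) were matched for 64 of the 70 members. Those of H4C1, H4C3, H2AC12, H3C11, H3C12 and H2BC12L were not matched. In 3 families a pair was printed, the chromosome 6 member with the highest H3K4me3 among those matched and a member of the same family with no H3K4me3 peak in any list, to show how far the promoters of marked and unmarked members resemble each other. Capitals mark TATAAA (the letters of the TATA box), the CCAAT box and the octamer ATTTGCAT, each on either strand. H1-4 (chr6:26156079-26156378, + strand) and H1-1 (chr6:26017738-26018037, − strand) encode linker histones. H2BC4 (chr6:26123877-26124176, − strand) and H2BC1 (chr6:25726527-25726826, + strand) encode H2B. H4C12 (chr6:27831511-27831810, − strand) and H4C6 (chr6:26240143-26240442, + strand) encode H4.
H1-4: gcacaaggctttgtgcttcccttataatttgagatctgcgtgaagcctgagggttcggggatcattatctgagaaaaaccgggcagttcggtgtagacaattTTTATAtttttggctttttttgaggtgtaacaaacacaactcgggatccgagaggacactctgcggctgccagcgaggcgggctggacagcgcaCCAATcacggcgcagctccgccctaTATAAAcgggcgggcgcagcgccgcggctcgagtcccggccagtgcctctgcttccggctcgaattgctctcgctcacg
H1-1: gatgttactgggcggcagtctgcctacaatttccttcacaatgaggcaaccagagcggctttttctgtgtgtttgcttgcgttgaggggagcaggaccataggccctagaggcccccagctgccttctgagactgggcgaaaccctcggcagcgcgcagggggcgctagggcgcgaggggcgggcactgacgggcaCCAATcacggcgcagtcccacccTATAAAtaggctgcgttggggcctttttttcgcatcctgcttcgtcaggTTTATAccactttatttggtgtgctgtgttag
H2BC4: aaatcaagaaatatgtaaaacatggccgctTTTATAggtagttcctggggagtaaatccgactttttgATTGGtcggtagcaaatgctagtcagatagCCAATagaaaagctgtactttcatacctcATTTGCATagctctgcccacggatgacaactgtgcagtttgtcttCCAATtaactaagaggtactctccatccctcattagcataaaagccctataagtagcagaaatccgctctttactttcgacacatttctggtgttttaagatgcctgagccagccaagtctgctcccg
H2BC1: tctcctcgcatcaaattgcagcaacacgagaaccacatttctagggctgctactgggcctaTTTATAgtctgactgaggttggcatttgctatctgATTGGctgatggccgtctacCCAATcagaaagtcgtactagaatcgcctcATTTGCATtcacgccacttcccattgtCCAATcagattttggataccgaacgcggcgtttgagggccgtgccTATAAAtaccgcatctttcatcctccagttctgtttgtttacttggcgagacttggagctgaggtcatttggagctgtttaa
H4C12: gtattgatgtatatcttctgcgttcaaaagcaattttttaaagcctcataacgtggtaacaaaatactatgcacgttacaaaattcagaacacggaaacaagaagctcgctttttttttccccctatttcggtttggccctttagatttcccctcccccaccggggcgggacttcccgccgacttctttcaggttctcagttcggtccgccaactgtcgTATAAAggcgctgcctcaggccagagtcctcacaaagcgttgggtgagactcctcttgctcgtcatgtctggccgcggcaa
H4C6: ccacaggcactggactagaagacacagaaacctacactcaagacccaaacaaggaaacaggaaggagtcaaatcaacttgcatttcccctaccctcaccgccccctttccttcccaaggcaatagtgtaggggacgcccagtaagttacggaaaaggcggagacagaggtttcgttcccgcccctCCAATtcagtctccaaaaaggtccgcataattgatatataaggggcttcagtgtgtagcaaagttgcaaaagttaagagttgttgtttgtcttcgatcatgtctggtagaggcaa

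Both linker histone promoters held a CCAAT whose first base lay 54 bases before the start and a TATAAA 29 (H1-4) or 31 (H1-1) bases before it. H2BC4 and H2BC1 both held 3 CCAAT and 1 ATTTGCAT, the octamer that OCT1 binds, at 123 and 104 bases before the start. H2BC1, which had no H3K4me3, also held a TATAAA 32 bases before its start, whereas that of H2BC4 lay 220 bases before. H4C12 held a TATAAA at 31 bases and no CCAAT, and H4C6 a CCAAT at 65 bases and no TATAAA. Over the 64 matched members, TATAAA was found in 65.6%, CCAAT in 84.4% and ATTTGCAT in 39.1%, against 9.82%, 36.3% and 1.67% of all 14616 promoters of coding genes in the table. These letters are given as matches in a fixed window and not as bound sites.

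The families differed in their letters. CCAAT was in every matched H1, H2A, H2B and H3 promoter and in 23.1% of H4 promoters, and ATTTGCAT was in 68.8% of H2A and 77.8% of H2B promoters and in no H1, H3 or H4 promoter. Members were poor in CpG, with a median of 12 CpG per 300 bases against 23 in all promoters and a GC content of 43.7% against 63.3%. The 54 matched members with H3K4me3 had a median of 12 CpG and the 10 without it 10.5, and TATAAA was in 37 and 5 of them, CCAAT in 45 and 9 and ATTTGCAT in 21 and 4.

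The 3′ stem-loop was searched as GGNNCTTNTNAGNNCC with a pairing stem, on the gene's strand, in the gene record and the 200 bases after it. It was found in 69 of 70 members (98.6%) and in 190 of the other 19033 genes (0.998%). The commonest form is shown with its paired stem in capitals, as found near the end of the H1-4 gene on the + strand at chr6:26157095-26157110, and the second as in H4C6 at chr6:26240778-26240793.
stem-loop in 40 members: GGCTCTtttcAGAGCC
stem-loop in 10 members: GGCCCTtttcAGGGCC

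The member without a match was H2BC12L on chromosome 21. All 10 members that lacked H3K4me3 had the stem-loop.

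**Figure D1:**
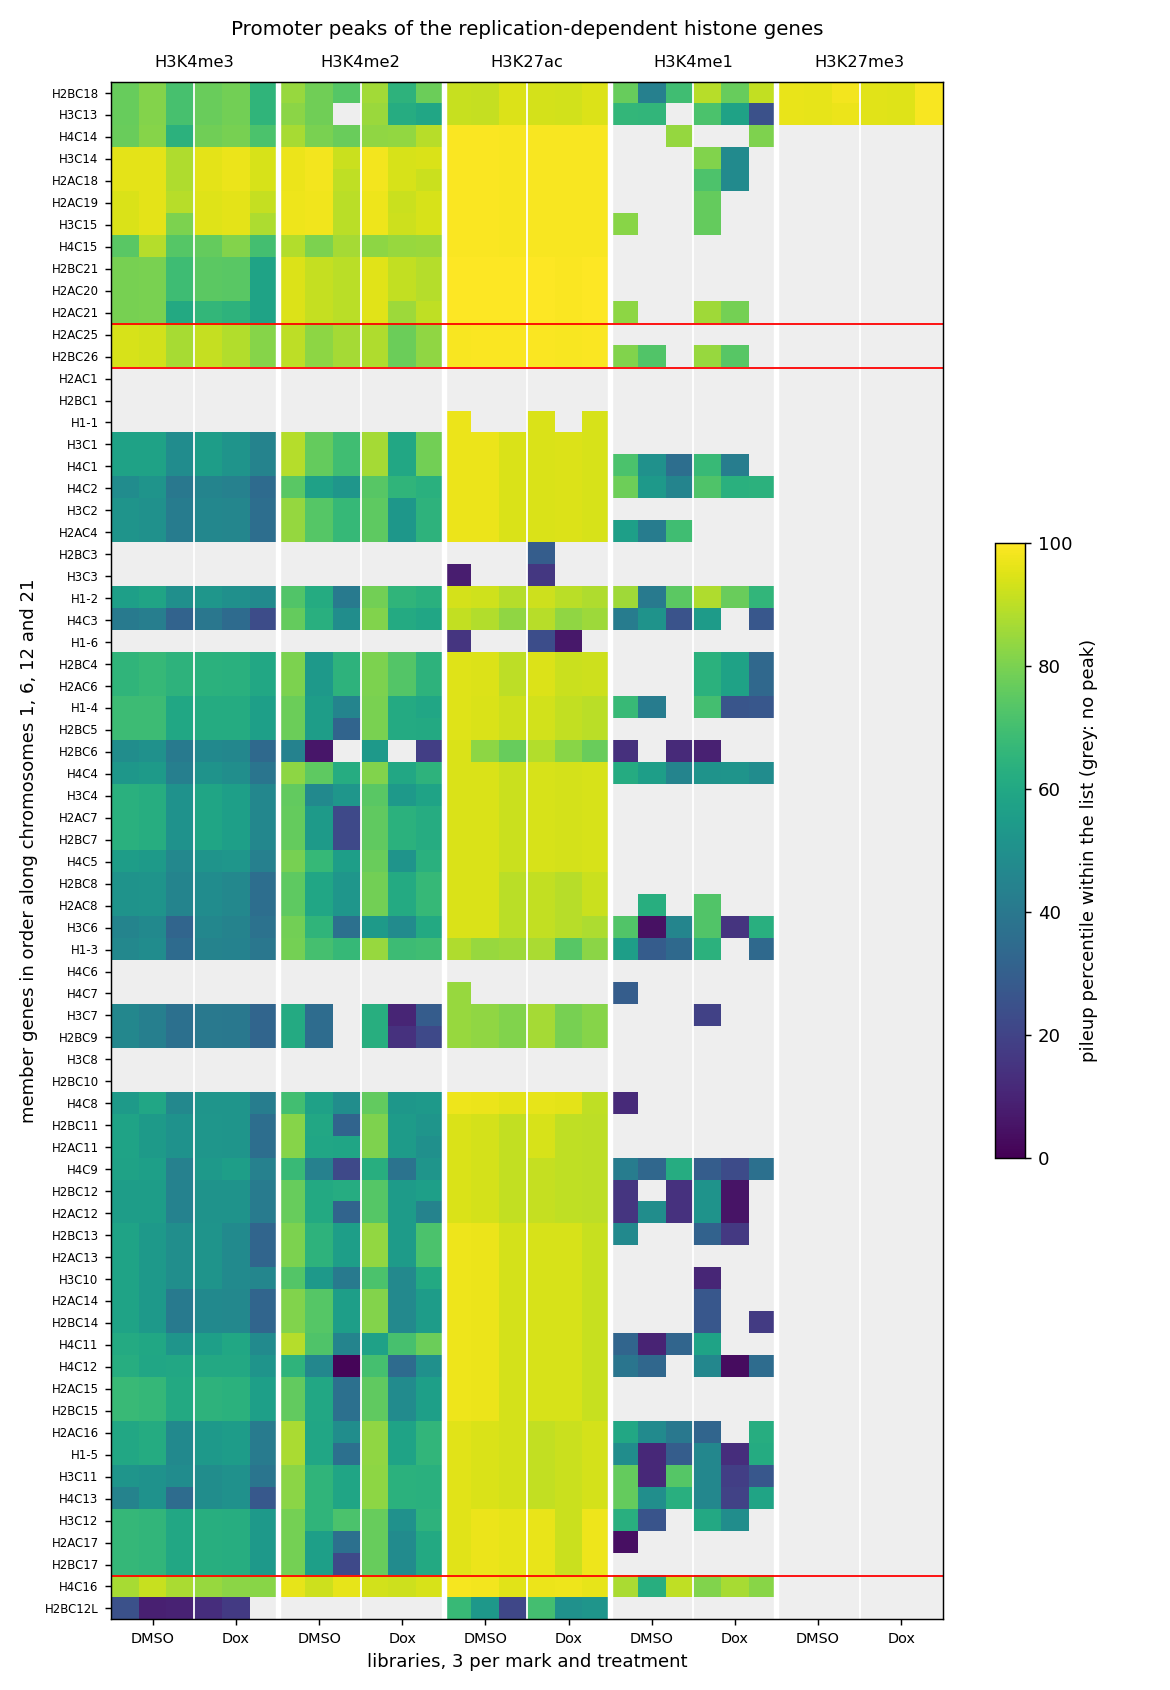
Each row is 1 of the 70 members in order along the chromosomes and each column 1 of the 30 libraries; the colour gives the pileup percentile of the promoter peak within its list, grey means no peak, and red lines divide the groups by position. H3K27ac is the brightest block for most members, the 10 members without H3K4me3 are grey in the H3K4me3 and H3K4me2 columns, and H3K27me3 is grey in all but 2 rows.

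H3K4me3 was the mark that divided the members. An H3K4me3 peak was found at 60 of 70 members in each DMSO library, and 60, 60 and 59 members had one in the doxycycline libraries, a share of 84.3 to 85.7% against 72.9 to 74.5% of all coding genes. The mark was present in all 6 lists at 59 members and in none at 10. The remaining member, H2BC12L, had a peak in 5 lists. The 10 without H3K4me3 were H1-1 and H1-6 (linker histones, H1-6 being the testis form), H2AC1 and H2BC1 (a divergent pair known from testis), H2BC3, H2BC10, H3C3, H3C8, H4C6 and H4C7. All 10 lay on chromosome 6, where 45 of 55 members were marked, and all 11 members at 1q21 were marked in every list.

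None of the 10 had an H3K4me2 or an H3K27me3 peak in any list. Of them, 5 had H3K27ac in some lists. H1-1 had it in 3, as part of a peak 17.2 to 18.5 kb wide that it shared with its marked neighbours, H1-6 had it in 3 at percentiles of 6.28 to 23.8, H3C3 in 2 and H2BC3 and H4C7 in 1. H4C7 also had the only H3K4me1 peak, in DMSO replicate 1. The nearest H3K4me3 peak lay a median of 8.92 to 9.40 kb from their starts, depending on the list.

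**Figure D2:**
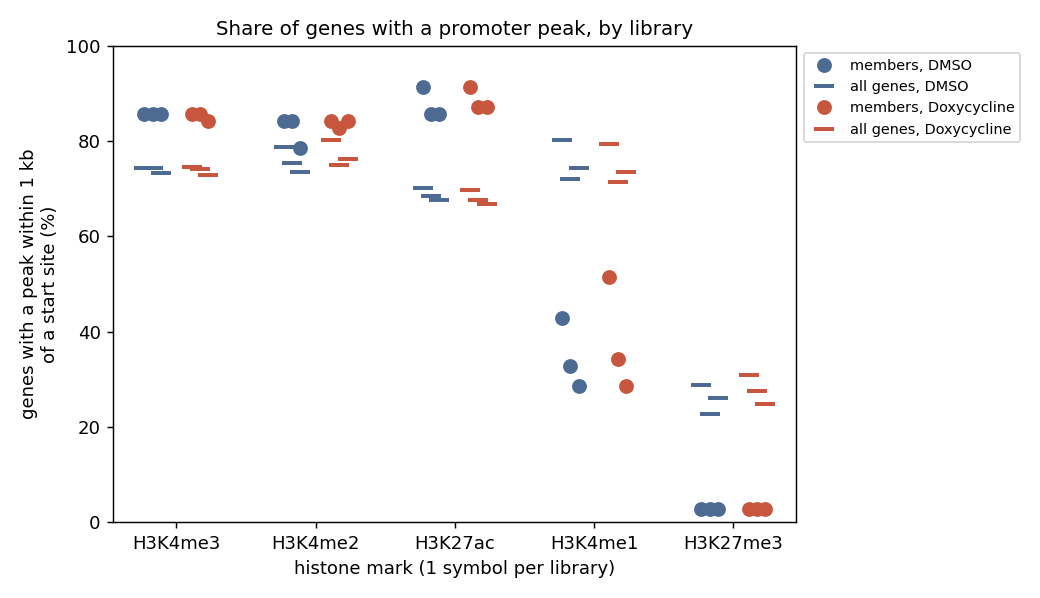
Share of genes (%) with a peak within 1 kb of a start site for each mark, with 1 symbol per library, circles for the 70 members, dashes for all 19103 coding genes, and colour for the treatment. The members lie above all genes in H3K4me3 and H3K27ac and below them in H3K4me1 and H3K27me3.

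Where it was present, H3K4me3 was low and wide. The median percentile of the members' peaks was 45.8 to 59.3 over the 6 lists, against 72.4 to 75.4 for all genes, and their median width was 2.23 to 4.62 kb against 1.92 to 2.27 kb. With each peak counted once, the median width was 2.16 to 3.93 kb against 1.88 to 2.21 kb. The groups by position stood apart in pileup. Averaged over the 6 lists, chromosome 6 members reached percentiles from 35.6 (H4C3) to 64.1 (H2BC4) with a median of 50.8, the 1q21 members 68.2 (H2AC21) to 94.4 (H3C14) with a median of 75.5, and H2AC25, H2BC26 and H4C16 85.9 to 89.2. By pileup every 1q21 member lay above every chromosome 6 member, and H2BC12L, the remaining member elsewhere, lay far below both groups. By fold enrichment these groups overlapped. The mean percentiles ran from 53.9 (H2AC21) to 88.4 (H2AC19) at 1q21 and from 37.9 (H4C3) to 83.7 (H2AC15) among marked chromosome 6 members.

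Among the linker histones, which bind DNA between nucleosomes, H1-4 was highest and H1-3 lowest of the 4 marked. H1-4 stood at percentiles of 68.6, 68.7 and 59.4 in DMSO replicates 1 to 3 and of 61.5, 61.7 and 56.5 in doxycycline. H1-3 stood at 46.8, 48.7 and 34.9 in DMSO and at 44.7, 44.5 and 39.6 in doxycycline. In both genes the treatments overlapped, and replicate 3 was the lowest of its treatment. The redundant share of reads was 22% and 25% in the H3K4me3 libraries of replicate 3 and 11 to 16% in the other 4, and its part in these values was not tested.

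Among H2A genes, H2AC18 was highest, at 95.9, 95.7 and 87.9 in DMSO and 95.8, 97.0 and 93.9 in doxycycline, a peak it shared with H3C14. By mean over the 6 lists that peak was the widest of the members in H3K4me3. It measured 6.97, 7.49 and 6.75 kb in DMSO and 7.07, 6.57 and 6.21 kb in doxycycline. In DMSO replicate 2 a peak of 5 members that included H2BC13 was wider, at 8.495 kb. H2AC4, on chromosome 6, was lowest at 51.6, 50.6 and 42.0 in DMSO and 46.3, 46.0 and 36.1 in doxycycline. The values of the near-identical H2AC18 and H3C14 rest on reads that could also be placed on H2AC19 and H3C15. Among H2B genes, H2BC26 stood at 93.9, 93.0 and 86.8 in DMSO and 91.2, 88.5 and 81.7 in doxycycline. H2BC12L was lowest at 24.9, 8.93 and 9.67 in DMSO and 13.2 and 17.2 in doxycycline replicates 1 and 2, with no peak in replicate 3. It was the one member without the stem-loop, and no word of its window was found only once in the genome.

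Among H3 genes H3C14 was highest, with the values of H2AC18, and H3C7 lowest, at 46.3, 43.1 and 36.8 in DMSO and 40.4, 40.0 and 32.5 in doxycycline. Among H4 genes, H4C16 on chromosome 12 was highest at 86.7, 91.6 and 87.2 in DMSO and 84.7, 82.8 and 82.4 in doxycycline, and H4C3 lowest at 41.4, 42.6 and 31.9 in DMSO and 39.7, 35.1 and 23.2 in doxycycline. For H4C16 all 3 DMSO values lay above all 3 doxycycline values.

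The place of the peak also differed. The start site of the 59 members with H3K4me3 in all 6 lists was covered by a peak in 57, 58 and 50 members in DMSO and in 54, 57 and 34 in doxycycline, whereas 97.0 to 98.6% of all genes with H3K4me3 in all 6 lists were covered. The lowest count, 34 of 59 (57.6%), was in doxycycline replicate 3. Between 6 and 36 members, depending on the list, had 2 or more H3K4me3 peaks in the window, a share of 15.8 to 24.6% being found for all genes. The summit is the highest base of the peak. Its median lay 220 to 287 bp downstream of the members' starts, against 137 to 149 bp for all genes. It was downstream in 55.9 to 62.7% of members against 71.3 to 72.4% of genes. The members' summits spread to both sides of the start, with a lower quartile of −715 to −578.5 bp, against −30 to −21 bp for all genes. Regardless of side, the median distance was 457 to 610 bp, against 191 to 207 bp.

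Divergent pairs mostly took the same peak, which the scoring favoured. Their windows of 1 kb on either side of the starts were nearly the same. The members formed 13 head-to-head pairs whose starts lay 170 to 319 bp apart, with a median of 236 bp, and 12 of them joined an H2A and an H2B gene, the other being H3C12 and H2BC17. In 12 of the 13 pairs both members took the same H3K4me3 peak and the same H3K27ac peak in all 6 lists. The remaining pair, H2AC1 and H2BC1, had neither mark. For H3K4me2 the peak was the same in all 6 lists in 8 pairs.

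**Figure D3:**
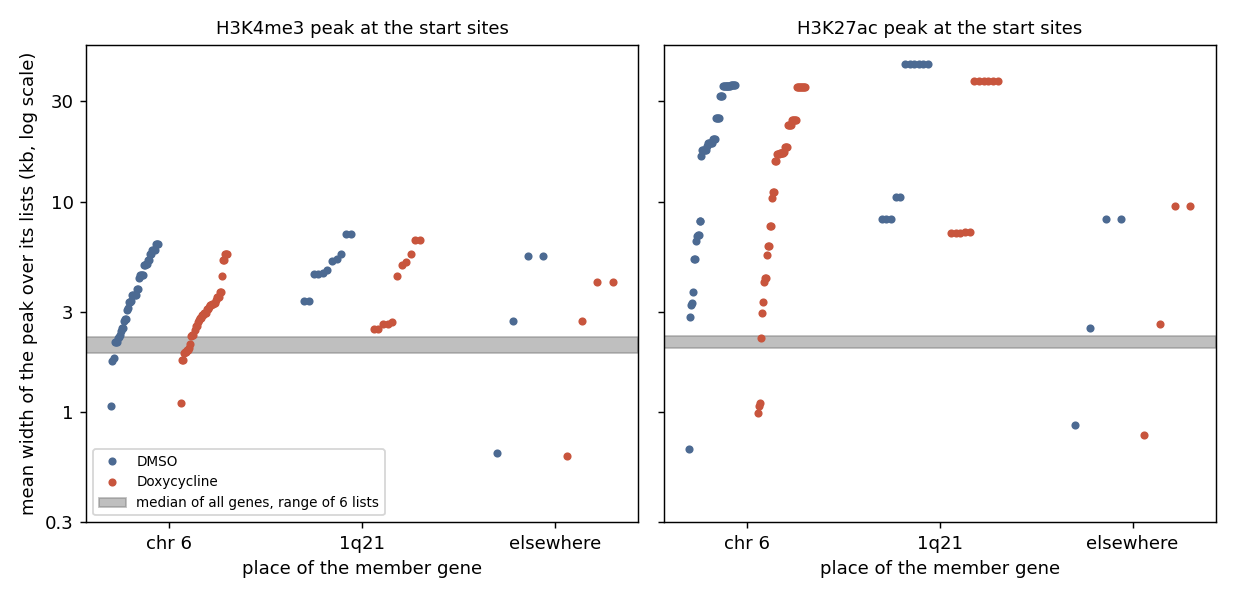
Mean width of the promoter peak over the libraries of a treatment (kb, log axis) for H3K4me3 on the left and H3K27ac on the right, with 1 point per member, by position and treatment, and a grey band for the range over 6 lists of the median of all genes. The H3K27ac points at 1q21 fall into a domain near or above 37 kb and a lower set, and most chromosome 6 points lie above the grey band.

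H3K4me2, which lies around active promoters, was found at no member that lacked H3K4me3. It was present at 59, 59 and 55 members in DMSO and 59, 58 and 59 in doxycycline, and at 55 in all 6 lists. The median percentile was 56.0 to 80.4, against 79.4 to 88.8 for all genes. H3C14 was highest, at 97.0, 98.1 and 91.9 in DMSO and 98.3, 94.0 and 94.3 in doxycycline, and the linker gene H1-4 ran from 45.2 to 77.6 in DMSO and from 59.3 to 79.8 in doxycycline. The start itself was covered in 23, 12 and 6 of the 59 H3K4me3-marked members in DMSO and in 37, 16 and 17 in doxycycline, against 64.9 to 95.0% of all genes with H3K4me3. Replicates of the same treatment thus differed by more than 2-fold in this count.

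H3K27ac gave the clearest cluster-wide feature. A peak was found at 64, 60 and 60 members in DMSO and at 64, 61 and 61 in doxycycline, that is 85.7 to 91.4%, against 66.7 to 70.2% of all genes. Each of the 59 members with H3K4me3 in all 6 lists had H3K27ac in all 6, against 87.1% of all genes with H3K4me3 in all 6. The median percentile of the members was 93.4 to 95.8, against 87.2 to 90.3 for all genes, so the members' median lay below that of all genes in H3K4me3 and above it in H3K27ac. Among the 60 members with H3K27ac in all 6 lists, H2BC21, H2AC20 and H2AC21, which share a peak, were highest, at 99.4 to 99.9, and H2BC12L was lowest, at 67.5, 53.2 and 21.4 in DMSO and 70.2, 50.4 and 52.0 in doxycycline.

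The H3K27ac peaks were broad domains that took in several genes. The median width over members was 13.8 to 20.2 kb, against 2.03 to 2.31 kb for all genes. The members held 20 to 25 peaks per list, of which 6 to 8 were 10 kb or wider and took in 35 to 46 members. Of all peaks in a list, at promoters or elsewhere, 1.12 to 2.97% reached that width. The share of all coding genes in such peaks was not counted. The widest covered 6 members at 1q21, H4C14, H3C14, H2AC18, H2AC19, H3C15 and H4C15. It measured 44.4, 44.5 and 46.5 kb in DMSO and 39.2, 36.4 and 36.8 kb in doxycycline, at pileup percentiles of 99.0 to 99.5. In the third stretch of chromosome 6, a domain of 9 members around H2BC13 measured 36.8, 35.1 and 34.6 kb in DMSO and 35.0, 34.9 and 35.1 kb in doxycycline. The domain around H4C4 measured 42.4, 40.2 and 25.3 kb in DMSO, where it held 9, 8 and 5 members, and 25.3, 25.3 and 22.9 kb with 5 members in each doxycycline list. H3C6, an H3 gene named after its values were seen, lay in this domain in DMSO replicates 1 and 2 alone.

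Other members stood in narrow peaks. H4C16 had an H3K27ac peak of 2.43 to 2.72 kb, H1-3 of 1.74 to 3.17 kb and H2BC12L of 0.654 to 0.971 kb. The linker gene H1-2 measured 7.32, 6.13 and 6.16 kb in DMSO and 6.08, 5.09 and 5.52 kb in doxycycline. H1-5 ran from 11.8 to 36.0 kb, with a value near 36 kb in 1 list of each treatment. Broad-mode calling links nearby stretches, so the width of a domain depends on whether a gap was bridged.

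H3K4me1 was displaced from the starts. It was found within 1 kb of 30, 23 and 20 members in DMSO and of 36, 24 and 20 in doxycycline, that is 28.6 to 51.4%, against 71.5 to 80.2% of all genes. Only 10 members had it in all 6 lists and 29 had it in none. For the 59 members with H3K4me3, the start was covered by H3K4me1 in 1.69 to 13.6%, against 48.1 to 60.2% of all genes with H3K4me3, and a peak lay within 1 kb of 33.9 to 61.0% against 87.8 to 96.5%. Within 5 kb the shares met, at 94.9 to 100.0% and 93.6 to 98.8%. The median distance from a member's start to the nearest H3K4me1 peak was 0.646 to 1.39 kb, against 0 to 0.067 kb for all genes with H3K4me3. The count is accordingly sensitive to the window: with 250 bp on either side a mean of 5.33 members in DMSO and 7.33 in doxycycline were marked, and with 2.5 kb 56.3 and 56.0.

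**Figure D4:**
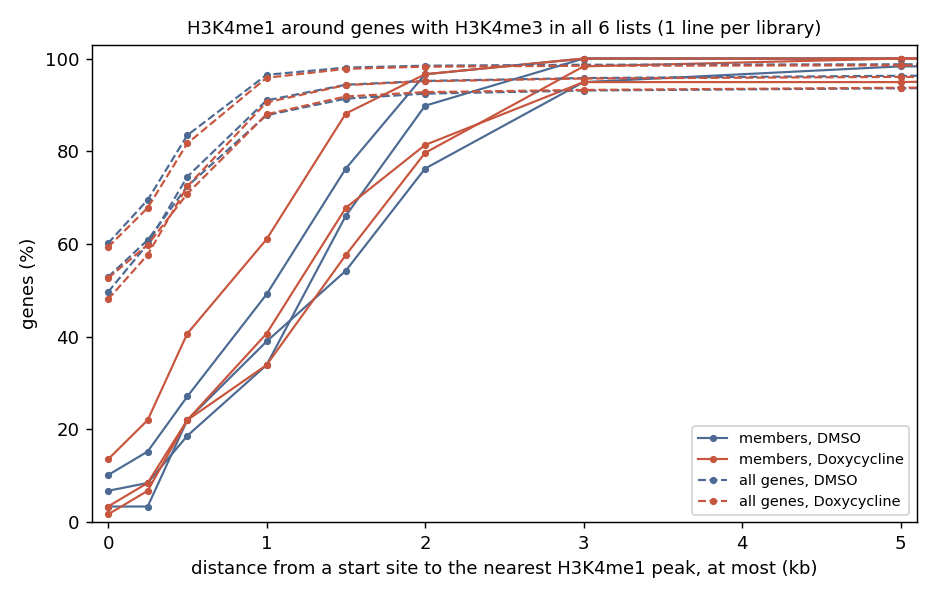
Share of genes (%) whose nearest H3K4me1 peak lies within the distance on the x axis (kb) of a start site, for genes with H3K4me3 in all 6 lists, with 1 line per library, solid for the 59 members and dashed for all 13834 genes, coloured by treatment. At 0 kb the members stand at 1.69 to 13.6% and all genes at 48.1 to 60.2%, and the lines meet by 5 kb.

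H4C16, the H4 gene on chromosome 12, had H3K4me1 in all 6 lists, at pileup percentiles of 87.3, 62.6 and 90.5 in DMSO and of 80.9, 86.9 and 82.3 in doxycycline. Its peaks were 0.44 to 0.90 kb wide and stood at fold-enrichment percentiles of 6.41 to 70.4. H1-2 had H3K4me1 in all 6 lists at pileup percentiles of 40.7 to 88.2 and fold-enrichment percentiles of 65.3 to 98.8. The widest H3K4me1 peak by mean was that of H4C14, present in replicate 3 of each treatment alone, at 2.01 and 6.02 kb.

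H3K27me3 was almost absent. The 2 members with it, H2BC18 and H3C13 at one edge of the 1q21 group, had a peak in all 6 lists, against 22.8 to 30.8% of all genes marked per list, and the other 68 had none in any list. The peak of H2BC18 measured 4.70, 1.22 and 0.684 kb in DMSO and 2.95, 5.75 and 0.776 kb in doxycycline and stood at pileup percentiles of 95.3 to 98.8. By fold enrichment its percentile ran from 48.4 to 97.2. H3C13 shared the peak in 5 of the 6 lists and had a peak of 0.297 kb of its own in DMSO replicate 3. That small peak stood at a fold-enrichment percentile of 0.44. Both genes also had H3K4me3 and H3K27ac in all 6 lists, and both have windows of low uniqueness (64.9% and 54.3%). In H3K27me3 the fragment length modelled by the caller was 105 to 280 bp over the libraries.

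The treatments were compared first by presence. A member separated them when it had a peak in every library of 1 treatment and in no library of the other, a rule with no p, since 3 against 3 cannot go below 0.10 in an exact two-sided test. In H3K4me1, H2AC4 had a peak in the 3 DMSO libraries (1.96, 1.16 and 0.437 kb wide) and in no doxycycline library, where 0.188% of all genes did the same. In the other direction, H2BC4 and H2AC6, a divergent pair, shared a peak in the 3 doxycycline libraries (3.47, 2.02 and 3.40 kb wide) and had none in DMSO, where 0.126% of all genes did so. The peaks of H2AC4 stood at percentiles of 56.3, 42.1 and 69.5 and those of the pair at 63.8, 57.6 and 34.0. Neither was found with a window of 250 bp on either side, with a q of 0.001 or less or where a peak had to cover 50% of the window, and the pair was not found with 2.5 kb. Without doxycycline replicate 1 the first count was 2, and without doxycycline replicate 3 the second was 4.

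No member separated the treatments in H3K4me3, where 0.0733% of all genes had a peak in DMSO libraries only and 0.0576% in doxycycline libraries only. None did so in H3K4me2 (0.0% and 0.0314%), in H3K27ac (0.225% and 0.11%) or in H3K27me3 (0.0% and 0.194%).

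Heights and widths were then compared over all genes with a peak in all 6 lists, using limma with Benjamini-Hochberg adjustment over all of them. Height was the normal score of the rank of pileup within a list, a unit of SD, and width was log2 of the width centred on the list's median. No member passed an adjusted p of 0.05 in any of the 10 fits. In simulated data, 0 of 200 planted shifts of 0.5 were called for H3K4me3 height, H3K27ac height or H3K27ac width. For H3K4me3 width, 114 of 200 were called. Differences of members ran from −0.443 to 0.227 in H3K4me3 height and from −0.379 to 0.404 in H3K27ac height. The lack of calls in height therefore cannot tell shifts of this size from none. For H3K4me3 height 4 of 59 members had an unadjusted p under 0.05 and the smallest adjusted p was 0.385. That member was H4C16, lower in doxycycline by a difference of −0.30 (SE 0.11), the gene whose 6 percentiles did not overlap. Of all genes tested, 0.0578% were called lower in H3K4me3 height and 0.289% higher.

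The sign of the H3K4me3 difference was mostly downward. Of the 59 members, 50 had a lower value in doxycycline, with a median difference of −0.135 SD units, against 52.6% of all genes with a median of −0.01. The 59 members took these values from 35 distinct peaks in DMSO replicate 1. In 11 members all 3 doxycycline values lay below all 3 DMSO values, against 8.2% of all genes, and 0 had the reverse, against 9.23%. The 11 were H4C3, H2BC8, H2AC8, H3C7, H2BC9, H2BC11, H2AC11, H2BC13, H2AC13, H3C10 and H4C16. Height is ranked here among the genes fitted, so members such as H3C7, H4C3 and H2BC13 were apart in rank though their percentiles over all peaks of a list overlap. H2BC13 and H2AC13, which share a peak, stood at percentiles of 58.0, 54.0 and 49.3 in DMSO and of 51.6, 48.0 and 32.5 in doxycycline, a difference of −0.32 (SE 0.12, limma adjusted p = 0.396), which did not pass the test. Without DMSO replicate 3 the count of 11 was 41 (14.7% of all genes) and without doxycycline replicate 2 it was 24 (12.8%). Since same-numbered H3K4me3 libraries deviated together, direction was also counted within the 3 pairs, a count chosen after seeing the data. In 41 members the doxycycline value was lower in all 3 pairs, against 20.7% of all genes, and in 4 (H3C14, H2AC18, H2AC19 and H3C15) it was higher in all 3, against 19.1%. The fit with the replicate number as a block called none of the 59, with a smallest adjusted p of 0.174 (limma).

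Width gave similar counts. Of the 59 members 47 had a narrower H3K4me3 peak in doxycycline, with a median difference of −0.131 in log2, against 47.5% of all genes. An unadjusted p under 0.05 was found for 10 members, and the smallest adjusted p was 0.519 (H3C10). With no overlap between treatments, 13 members were narrower, against 6.45% of all genes, and 0 were wider, against 9.75%. The peak of H2BC13 measured 6.59, 8.50 and 3.81 kb in DMSO and 3.63, 4.17 and 1.51 kb in doxycycline, so its narrowest DMSO value lay under the largest doxycycline value in kb but not after centring on the list's median. Limma called 0.0578% of all genes narrower and 0.275% wider. Without DMSO replicate 3, H2BC21, H2AC20, H2AC21, H2AC14 and H2BC14 were called narrower (0.159% of all genes), and without doxycycline replicate 2, H1-4 and H2BC5 (0.123%). Without DMSO replicate 3 the 13 narrower without overlap were 21 (9.93% of all genes), and with each library left out in turn 1 to 3 members were wider. Within same-numbered pairs 20 members were narrower in all 3, against 16.0% of all genes, and 4 wider, against 23.6%.

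**Figure D5:**
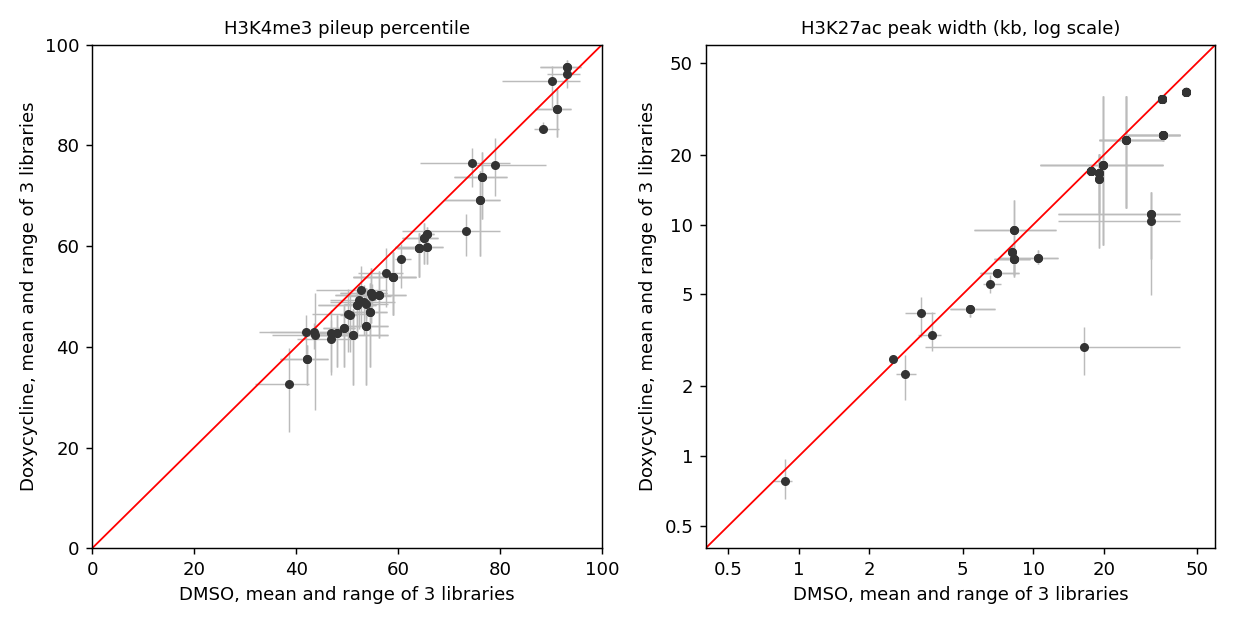
Each point is a member with the mark in all 6 lists, with its mean in DMSO on the x axis, its mean in doxycycline on the y axis and bars from the lowest to the highest of 3 libraries, for the H3K4me3 pileup percentile on the left and the H3K27ac peak width (kb, log axes) on the right; the red line marks equal values. Most points lie under the line in both panels, and members that share a peak share a point.

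For H3K27ac the height of 48 of 60 members was lower in doxycycline, with a median of −0.157 against 47.1% of all genes lower. None had values that did not overlap, against 11.5% of all genes lower and 13.1% higher, none had an unadjusted p under 0.05, and the smallest adjusted p was 0.326. Limma called 1.53% of all genes lower and 0.646% higher. Leaving out DMSO replicate 3 gave 36 members lower without overlap (16.7% of all genes). Ranking by fold enrichment in place of pileup gave 21 (11.5% of all genes). The count of 0 therefore depended on the libraries included and on the measure.

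The H3K27ac domains were narrower in doxycycline in 56 of 60 members, with a median log2 difference of −0.216, against 47.5% of all genes. Without overlap, 17 members were narrower, against 7.42% of all genes, and 0 wider, against 8.87%, and 10 had an unadjusted p under 0.05. These members share few peaks, as the 60 took their values from 18 distinct peaks in DMSO replicate 1, and the 17 include the 6 members of the widest 1q21 domain. That domain differed by −0.27 (SE 0.12, limma adjusted p = 0.569), and the smallest adjusted p, 0.507, belonged to the H4C4 domain at −0.52 (SE 0.17). The difference was widest at H3C6, at −1.56 (SE 0.54, limma adjusted p = 0.516). Limma called 0.129% of all genes narrower and 0.186% wider. Without doxycycline replicate 3 the count was 36 (13.3% of all genes) and without doxycycline replicate 2 it was 28 (11.5%). By summed length of all peaks in the window it was 8 (6.88%).

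H3K4me2 had no common direction. In height 28 of 55 members were lower, with a median of −0.001, and 6 were lower without overlap against 8.05% of all genes and 4 higher against 7.85%. In width 21 of 55 were lower, with a median of 0.137, and 2 were narrower against 2.83% and 3 wider against 5.71%. Without doxycycline replicate 1 the 3 wider were 23 (15.3% of all genes), and without doxycycline replicate 3 the 4 higher were 12 (14.1%). The smallest adjusted p was 0.313 for height and 1.0 for width, with 2 and 5 members under an unadjusted p of 0.05, and limma called 0.0144% of all genes lower and 0.0288% higher in height. In H3K4me1, 10 members could be fitted, with a smallest adjusted p of 0.286 for height and 0.783 for width and with 2 and 0 members under an unadjusted p of 0.05. Of these, H2BC18 was higher in height without overlap and no member was lower (8.41% and 8.91% of all genes), and none had separate widths (7.2% of all genes narrower, 6.04% wider). In H3K27me3 2 members could be fitted, with smallest adjusted p of 0.959 and 0.976 and none under an unadjusted p of 0.05. Neither was without overlap in height (7.37% of all genes lower, 6.23% higher) or in width (2.8% narrower, 2.15% wider). Limma called 0.0% of all genes in either direction for both measures of both marks.

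The genes that act on the histone genes carried marks of active promoters. All 14 regulators listed, among them NPAT, SLBP, HINFP, CASP8AP2, CDK2, CCNE1 and E2F1, had H3K4me3 and H3K27ac in all 6 lists. The shares of all genes were 72.4% for H3K4me3 and 64.9% for H3K27ac. Of the 14, 1 also had H3K27me3 in all 6 lists and 12 had it in none, against 20.2% and 64.6% of all genes. NPAT stood at a mean H3K4me3 percentile of 66.0 and SLBP at 59.7, and their H3K27ac peaks had a mean width of 4.02 and 3.72 kb. All 11 replication-independent histone genes had H3K4me3 in all 6 lists. Among them limma called 1 gene lower in H3K4me3 height, H3-3B, which encodes the replacement histone H3.3, at 99.7, 99.5 and 99.7 in DMSO and 97.0, 97.3 and 97.4 in doxycycline, a difference of −0.86 (SE 0.093, adjusted p = 0.012). Of 19 other coding genes listed from the same interval of chromosome 6, 11 had H3K4me3 in all 6 lists and 7 in none, and the largest mean width of H3K27ac among them was 4.57 kb, at HMGN4.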

How the data were processed

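ChIP-seq of 5 histone marks in KELLY cells given DMSO or doxycycline for 72 h was analysed, with 3 libraries per mark and treatment. Groups and replicate numbers came from the labels, 34 samples in all, of which the 4 inputs entered only through the peak calls.

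The authors aligned reads to hg38 with Bowtie2 reporting a single placement per read and filtered them at a mapping quality of 30, as the headers and methods state. The authors called peaks for each library alone with MACS2 2.1.1.20160309. Per the file headers, H3K27ac, H3K4me1 and H3K27me3 used the broad mode (q 0.05, and q 0.1 for linked weaker stretches) and H3K4me2 and H3K4me3 the narrow mode at p 1e-5, where the methods state a q of 0.05. Inputs named for replicates 1 and 3 had the same read totals in both treatments. Pileup, as deposited, is a signal of stacked fragments, read at the summit in narrow lists and averaged over the region in broad lists. The −log10 p-value and the −log10 q-value were deposited as the caller gave them, and the deposited fold enrichment is the ratio of ChIP to local background. Calling depth scales these values, so pileup was ranked within each list.

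Members and lists were chosen with earlier results of these data known. Promoters were the 1 kb on either side of every annotated start, and a peak counted from 1 bp of overlap, checked against bedtools 2.31.1. A gene took its height and width from the peak of highest pileup. Analyses used python 3.11.15, numpy 2.4.6, pandas 2.3.3, scipy 1.17.1, R 4.3.3 and limma 3.58.1, and each fit used all genes with a peak in all 6 lists of a mark, with no filter on height. Scripts were tested on simulated data. Named genes were the highest and lowest member of each family in H3K4me3, members without H3K4me3, members that separated the treatments or had H3K27me3, those with the widest peak of a mark, those outside both clusters and the testis forms. Genes named beyond this rule were chosen after their values were seen.

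Same-numbered H3K4me3 libraries deviated together, with correlations across genes of 0.329, 0.297 and 0.409 in height and 0.27, 0.301 and 0.435 in width, so a fit with the replicate number as a block was run. In the other marks not every pair passed 0.1. Alternatives covered the window, overlap, q, uniqueness, merged promoters, height measure, width measure, direction within pairs and each library left out. Read counts per region were not used, so the number of libraries limits the precision. Some genes of the cell type marker lists are not reported here.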

Additional observations from a re-analysis of the deposited data

How the results depend on the processing

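Of 695 alternatives over 60 results, 604 were scored as the same. A count was the same when unchanged or within 1.5 times of the main value. A median or summit offset was the same when it kept its direction and moved by less than the SD between libraries. Counts of 0 that stayed at 0 are included, and every count of members called by limma was 0 in the main setting. The fit with the replicate block, which pairs same-numbered libraries, called 0 members in each of the 10 comparisons, the smallest adjusted p being 0.174 for H3K4me3 height and 0.11 for H3K4me3 width, and it changed no call of a member. Over all genes its calls differed, at 0.145% lower and 0.528% higher in H3K4me3 height, 2.66% and 1.27% in H3K27ac height, 0.0072% and 0.0216% in H3K4me2 height, and 0.0% in either direction in H3K4me3 and H3K27ac width. Counting direction within the 3 pairs of H3K4me3, chosen after seeing the data, gave 41 members lower and 4 higher in height (20.7% and 19.1% of all genes) and 20 narrower and 4 wider (16% and 23.6%). Presence counts and summit offsets were described with no test, so no block was fitted for them.

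The 70 members had 47 merged promoters. Counting these once gave a mean of 39.0 (DMSO) and 38.67 (doxycycline) for H3K4me3, 37.33 and 37.67 for H3K4me2, 1 and 1 for H3K27me3, and 1 promoter with H3K4me1 in doxycycline only. Members with H3K4me1 numbered 5.33 and 7.33 with 250 bp, 56.33 and 56.0 with 2.5 kb, 2.67 and 2.33 where a peak had to cover 50% of the window, and 12.67 and 16.67 at q 0.001. The member with H3K4me1 in DMSO only went to 0 under 250 bp, 50% cover and q 0.001, and those in doxycycline only went to 0 under these and under 2.5 kb. With members of 90% unique words H3K27me3 went to 0 in both treatments, and with 50% cover to 1 in DMSO. The q alternative could not alter the narrow lists, all of whose peaks already passed it.

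Shares in parentheses are those of all genes under the same setting. Ranking by fold enrichment gave 3 members higher without overlap in H3K4me3 (9.65%) and a median of −0.242, 1 lower in H3K4me2 (7.46%), and 21 lower in H3K27ac (11.5%) with a median of −0.347. Ranking by −log10 p gave 1 higher in H3K4me3 (9.22%), 2 higher in H3K4me2 (7.77%) with a median that reversed to 0.068, and 24 lower in H3K27ac (12.2%). In H3K4me2 height, 250 bp gave 3 lower (7.88%) and 0 higher (8.07%), and members in at least 5 of 6 lists gave 2 higher (8.46%) and a median that reversed to 0.013. In H3K4me2 width, these gave 0 narrower (2.58%) and 4 narrower (2.84%), and summed length gave 5 narrower (3.5%) and 1 wider (6.63%). Summed length gave 8 narrower for H3K27ac (6.88%). The summit offset of members was 291.7 bp from the midpoint of the widest peak, an alternative chosen after seeing the data. The cause of these shifts was not tested.

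Leaving out 1 library at a time, H3K4me1 counts ran from 1 to 2 (DMSO only) and from 2 to 4 (doxycycline only). Members lower without overlap in height ran from 11 to 41 in H3K4me3 (12.5 to 14.7% of all genes over the 6 settings), 6 to 10 in H3K4me2 (12.0 to 14.2%) and 0 to 36 in H3K27ac (15.2 to 17.7%), and members higher from 0 to 2 (12.8 to 14.8%), 4 to 12 (12.3 to 14.1%) and 0 to 7 (17 to 21%). Narrower members ran from 15 to 21 (9.48 to 16.2%), 2 to 4 (5.53 to 7.54%) and 17 to 36 (11.5 to 13.3%), and wider members from 1 to 3 (12.4 to 18.8%), 3 to 23 (8.99 to 16.2%) and 0 to 1 (13.5 to 15.6%). The H3K27ac height counts of 36, 9 and 3 lower were without DMSO replicate 3 and doxycycline replicates 2 and 3, that of 7 higher was without DMSO replicate 2, and the count of 23 was without doxycycline replicate 1. Limma called 0 to 5 members narrower in H3K4me3. The H3K4me2 medians ran from −0.109 to 0.066 in height, reversing to 0.033, 0.042, 0.010 and 0.066 without DMSO replicates 1 and 2 and doxycycline replicates 2 and 3, and from −0.037 to 0.296 in width, reversing to −0.024 and −0.037 without DMSO replicate 3 and doxycycline replicate 2.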
